A study of Bos taurus with 8 samples.

Results

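Transcripts of fatty acid synthesis, oxidation and storage were followed in granulosa cells of 4 atretic and 4 growing dominant follicles from Holstein cattle. The gene set held 42 genes, taken by symbol from the annotation of the bovine array, with the brightest probe standing for each gene. Of these, 40 were found among the 15229 gene symbols on the array, whereas HADHA and LPL were not named by the annotation and were not analysed here. The fit took 38 of them, out of 13625 genes in all, and LIPE and PPARA were left out because their mean log2 intensity was under 7. AGPAT9 is listed as GPAT3 in the RefSeq gene table used here, and the other members carried the same symbol there.

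Follicles were individual and larger than 9 mm, and mural granulosa cells were scraped from slaughterhouse ovaries. Flow cytometry ranked them by the share of cells with a full DNA content or more, less the share with a lower content. The highest ranked were called growing and the lowest atretic, with a plateau group between that is not part of this report. In atresia granulosa cells die and their DNA breaks up, and in the growing phase they divide. The rank did not score division on its own. No treatment is recorded for either group, and the reproductive status, cycle stage and age of the cows were unknown here. After amplification, RNA of 1 atretic and 1 growing follicle shared an array, 1 in Cy5 and 1 in Cy3, and each of the 4 pairs was repeated with the dyes exchanged.

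Granulosa cells line the follicle wall, convert androgens to oestradiol and nourish the oocyte. Fatty acids are built from acetyl-CoA in the cytosol, lengthened by elongases and given double bonds by desaturases, and these genes are known targets of the sterol-regulated factor SREBP-1 and of the oxysterol receptor LXR. A fatty acid is coupled to coenzyme A before use, then burned by beta-oxidation in mitochondria and peroxisomes or joined to glycerol and stored in lipid droplets. Bovine granulosa cells are known to hold lipid droplets and to oxidise fatty acids.

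Values are log2 intensities of a follicle's channel, averaged over its 2 arrays, and ratios are log2 of atretic over growing within a pair. Each SE is limma's moderated one, with a variance drawn towards that of all probes. It is not computed from a gene's own pair ratios alone. Intensities differ between probes for reasons other than the amount of RNA, so levels were compared within a gene only. Because whole granulosa samples were used, fewer cells of a kind and less RNA per cell cannot be told apart. Across arrays and channels, 48.4 to 72.1% of probes were above the negative controls, and no member reached the scanner's limit. Of 11 granulosa markers, 9 were above the negative controls on all arrays in both phases. INHA, an inhibin subunit, was at 14.29 to 15.98 in atretic and 13.54 to 15.99 in growing follicles and reached the scanner's limit on 3 and 4 arrays. CYP19A1, the aromatase of oestradiol synthesis, ran from 8.80 to 15.91 in atretic and from 7.42 to 15.76 in growing follicles. Of the 11 markers, 5 had a mean ratio above 0 and 6 below, with a median of -0.08. Only AMHR2, the receptor of anti-Müllerian hormone, was past the study's threshold, with a ratio of 1.61. Adipocyte and erythrocyte markers averaged 7.44 to 8.01 and 7.22 to 7.57 in atretic follicles and 7.51 to 7.65 and 7.34 to 7.47 in growing follicles, against a negative control limit of 7.06, though the adipocyte marker CFD was at 10.84 in the atretic and FABP4 at 8.92 in the growing follicle of pair 2. Over all probes, pair 1 correlated with pairs 2, 3 and 4 at -0.22, -0.37 and -0.06, against 0.23 to 0.50 among those 3 pairs. The direction of pair 1 was kept as its dye labels give it, and whether its atretic and growing labels are the right way round was not tested. Calls that were gained or lost without pair 1 are given both ways for the genes named. Pair 1 was singled out from these same ratios. A call gained without it, from 3 pairs, is therefore a description and not a separate test.

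Few members differed between phases in a way shared by all pairs. At the study's threshold, a fold of at least 1.5 with an unadjusted p under 0.05 in limma, 3 of 38 members (7.89%) were lower in atretic follicles, against 2.44% of the 13625 genes, and 1 member (2.63%) was higher, against 2.66% of genes. The lower members were AGPAT9, FADS1 and ELOVL6, which act in glycerolipid synthesis, desaturation and elongation, and the higher one was ACAA2, of beta-oxidation. After Benjamini-Hochberg adjustment over all 36295 probes, 0 members and 0% of genes passed, and the adjusted p of the members in limma lay between 0.716 and 0.993. Unadjusted p in limma was under 0.05 for 6 of 38 members, beside 1143 of 13625 genes, the other 2 members being CD36 and GPAM. With all probes of a gene averaged, 2 of 37 members, FADS1 and AGPAT9, were lower at the study's threshold and 0 were higher, beside 1.86% and 1.84% of genes. With the 8 arrays fitted singly and the pair as a random replicate block, 6 members were lower and 1 was higher, beside 4.1% and 4.87% of genes. That fit added ACSL3, ELOVL5 and PPARG, and its smallest adjusted p of a member in limma was 0.0632.

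The average ratio was above 0 for 16 members (42.1%) and below 0 for 22, where 52.3% of all genes were above 0. The median over the 38 members was -0.06, beside 0.01 over all genes. Within pairs the members did not move alike. In pair 1, 25 of 38 members (65.8%) had more signal in the atretic follicle, with 52.1% of genes higher. The share of members was 28.9% in pair 2, 31.6% in pair 3 and 39.5% in pair 4, where 51.2%, 51.5% and 51.2% of genes were higher. The medians of the members over the 4 pairs were 0.24, -0.21, -0.26 and -0.08, so that pair 1 stood on the other side of 0 from the rest. Without pair 1, 9 members (23.7%) were lower and 1 was higher at the study's threshold, beside 5.85% and 7.32% of genes. Still none passed the adjusted threshold in limma, with a smallest adjusted p of 0.165.

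**Figure D1:**
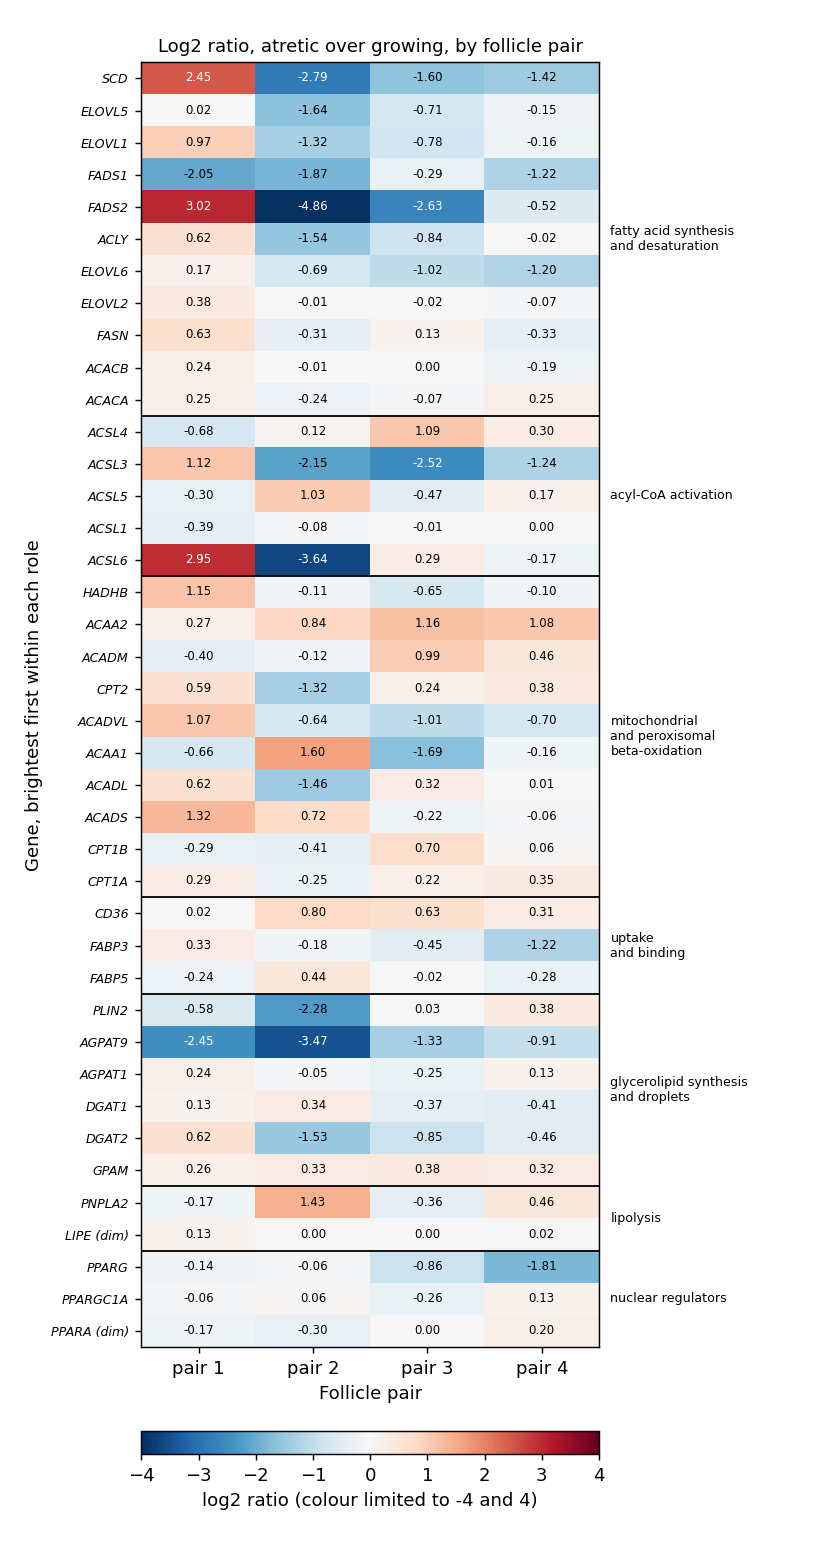
Log2 ratio of atretic over growing for the 40 genes named on the array (rows, grouped by role and ordered by intensity) in each of the 4 follicle pairs (columns), with red for higher and blue for lower in the atretic follicle. In the synthesis and desaturation rows, pair 1 is mostly red and pairs 2 to 4 mostly blue, while AGPAT9 and FADS1 are blue and ACAA2 red in all 4 pairs; LIPE and PPARA are marked as dim.

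In fatty acid synthesis and desaturation, pair 1 ran against the other pairs. For 10 of its 11 members the atretic follicle of pair 1 was the higher one, and for 0, 1 and 1 members that of pairs 2, 3 and 4. In pair 1, however, the dye-swapped arrays had opposite signs for ACACA, ACACB, ELOVL2 and ELOVL5. ACACA and ACACB exceeded the negative controls on at most 2 of 8 arrays in either phase. In pair 2 the ratios of ELOVL2 and ACACB were only -0.01. The median ratio of this group was 0.38 in pair 1, against -1.32, -0.71 and -0.19 in the other pairs. FADS1 was the member that was lower in pair 1.

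FADS1, the delta-5 desaturase that completes arachidonic acid, was measured at 12.30, 11.98, 12.07 and 10.95 in atresia (log2 intensity, pairs 1 to 4 in order here and below), against 14.35, 13.85, 12.36 and 12.17 in the growing follicles. It was lower in the atretic follicle of every pair, most in pairs 1 and 2 and least in pair 3, and the groups overlapped only through the atretic follicle of pair 1 and the growing follicle of pair 4. The mean ratio was -1.36 ± 0.32 (SE, n = 4 pairs), 2.56-fold lower in atretic follicles (adjusted p = 0.716 in limma). Its second probe, which was dimmer, had a ratio of -0.11 and pair ratios of 0.50, -0.34, -0.25 and -0.36.

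FADS2, the delta-6 desaturase that precedes it in the same pathway, was at 13.37, 10.76, 11.08 and 12.19 in atretic follicles and at 10.35, 15.62, 13.71 and 12.71 in growing follicles. The highest and the lowest of the 8 values were both growing follicles, those of pairs 2 and 1, and the groups overlapped. Its pair ratios of 3.02, -4.86, -2.63 and -0.52 had an SD of 3.35, the widest of all members. Their mean was -1.25 ± 1.31 (moderated SE). Without pair 1 the ratio was -2.67 ± 0.86, past the study's threshold (adjusted p = 0.348 in limma). The dye-swapped arrays gave the same sign in each pair.

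SCD, the stearoyl-CoA desaturase that makes oleic acid, had the brightest probe of the set, with 15.82, 12.40, 14.20 and 14.50 in atretic follicles and 13.36, 15.19, 15.80 and 15.92 in growing follicles. It was lower in the atretic follicle of pairs 2, 3 and 4, with ratios of -2.79, -1.60 and -1.42, and higher in that of pair 1, with a ratio of 2.45. The mean over all pairs was -0.84 ± 0.89 (SE). Leaving out pair 1 gave -1.94 ± 0.32, past the study's threshold (adjusted p = 0.185 in limma).

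In each of ELOVL1, ELOVL2, ELOVL5 and ELOVL6, elongases of the set, pair 1 had the highest ratio. ELOVL6, which extends palmitate, was at 9.18, 7.89, 8.72 and 8.63 in atretic follicles, against 9.01, 8.59, 9.74 and 9.82 in growing follicles, so that pairs 2 to 4 were lower in atresia and pair 1 was slightly higher. Its mean ratio of -0.69 ± 0.25 (SE), or 1.61-fold lower, passed the study's threshold (adjusted p = 0.775 in limma). It no longer passed without pair 2, 3 or 4, and its other two probes had ratios of -0.03 and -0.32.

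ELOVL5, which extends polyunsaturated fatty acids, was at 12.64, 12.64, 12.19 and 12.66 in atretic follicles and at 12.62, 14.28, 12.90 and 12.81 in growing follicles. Apart from the growing follicle of pair 2, which was high, and the atretic follicle of pair 3, which was low, the values lay close together. The ratio was -0.62 ± 0.31 (SE), and both other probes had ratios below 0 as well (-0.22 and -0.31). ELOVL1, an elongase of saturated very long chains, had pair ratios of 0.97, -1.32, -0.78 and -0.16 and passed the study's threshold without pair 1, at -0.75.

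None of the enzymes that supply and assemble the chain passed the study's threshold. ACLY, which makes cytosolic acetyl-CoA from citrate, had pair ratios of 0.62, -1.54, -0.84 and -0.02. ACACA, the cytosolic acetyl-CoA carboxylase, was at 7.26, 6.95, 7.01 and 6.97 in atretic follicles and at 7.01, 7.19, 7.07 and 6.72 in growing follicles. ACACB, the mitochondrial form, was at 7.15, 7.001, 6.95 and 7.08 in atretic follicles and at 6.91, 7.01, 6.95 and 7.27 in growing follicles. Both were the dimmest members of the fit, and their groups overlapped. In either phase they exceeded the negative controls on 2 of 8 arrays at most. FASN, the fatty acid synthase, and ELOVL2 were dim too, with ratios of 0.03 ± 0.20 and 0.07 ± 0.12 (SE).

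**Figure D2:**
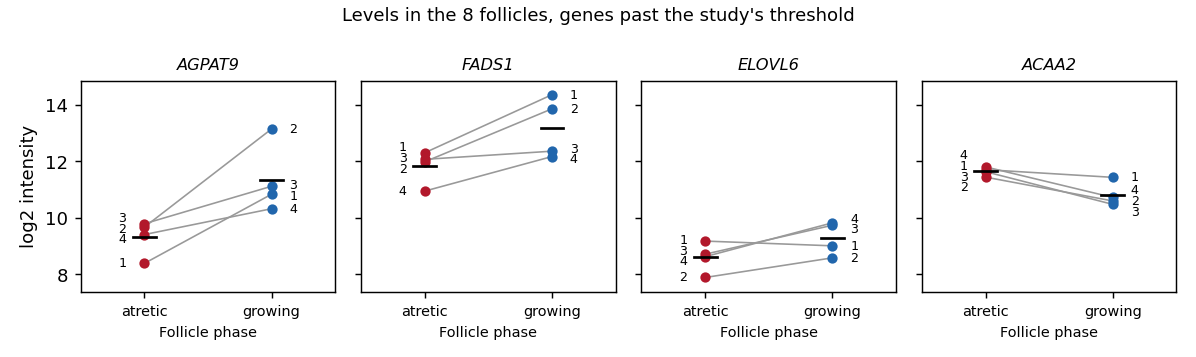
Log2 intensity (vertical axis) of AGPAT9, FADS1, ELOVL6 and ACAA2 in 4 atretic follicles (left, red) and 4 growing follicles (right, blue); numbers and grey lines give the pair and black bars the group mean. All atretic values lie below all growing values for AGPAT9 and above them for ACAA2, and the groups overlap for FADS1 and ELOVL6.

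Markers of theca and luteal cells differed between the follicles of a pair as well. Theca markers, genes of the layer outside the granulosa, were higher in the atretic follicle for 7, 1, 0 and 5 of 8 genes in pairs 1 to 4. Their mean log2 intensity ran from 8.08 to 10.40 in atretic and from 8.39 to 9.81 in growing follicles, with the highest mean in the atretic follicle of pair 1. CYP17A1, the theca enzyme of androgen synthesis, was at 9.49, 7.42, 7.36 and 7.19 in atretic follicles and at 7.72, 9.11, 9.12 and 7.60 in growing follicles. For luteal markers, 6, 2, 1 and 4 of 6 genes were higher in the atretic follicle, with means from 8.82 to 12.31 in atretic and from 9.30 to 10.94 in growing follicles. LHCGR and HSD3B1 stand in both lists and are also made by granulosa cells of large follicles. Both lists had pair 1 on the same side as the synthesis genes, and so did the granulosa markers. The median ratios of the granulosa markers were 1.28, 0.26, -1.30 and -0.06 in pairs 1 to 4. In the study, qRT-PCR found more CYP17A1 in 1 atretic sample. The paper proposes theca contamination for it and took that sample out of the qRT-PCR analysis. Which follicle here it was, if any, was not settled. The part of theca and luteal cells in the synthesis ratios was not tested.

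Acyl-CoA synthetases, which activate fatty acids, had 2 members above 0 and 3 below. ACSL3, an enzyme of the endoplasmic reticulum and lipid droplets, was at 11.18, 9.48, 9.28 and 10.08 in atretic follicles and at 10.06, 11.63, 11.80 and 11.31 in growing follicles. The atretic follicle was lower in pairs 2 to 4 and higher in pair 1, which alone made the groups overlap. The mean ratio was -1.20 ± 0.64 (SE) over 4 pairs and -1.97 ± 0.29 without pair 1, where it passed the study's threshold (adjusted p = 0.176 in limma). Its other probes gave -0.48 and -0.02, both with the highest ratio in pair 1.

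ACSL6, a form best known from brain and erythroid cells, was at 9.56, 6.59, 6.91 and 6.94 in atretic follicles and at 6.61, 10.23, 6.62 and 7.10 in growing follicles. Only the atretic follicle of pair 1 and the growing follicle of pair 2 stood well apart from the rest, and signal over the negative controls was seen on 3 of 8 arrays for atretic and 2 of 8 for growing follicles. ACSL4, which prefers arachidonic acid, had pair ratios of -0.68, 0.12, 1.09 and 0.30, with pair 1 the lowest. ACSL1 had a ratio of -0.12 ± 0.12 (SE), with pair ratios no more than 0.01 below 0 in pairs 3 and 4 and opposite signs on the dye-swapped arrays in 4 of 4 pairs, and ACSL5 had a ratio of 0.11 ± 0.28.

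**Figure D3:**
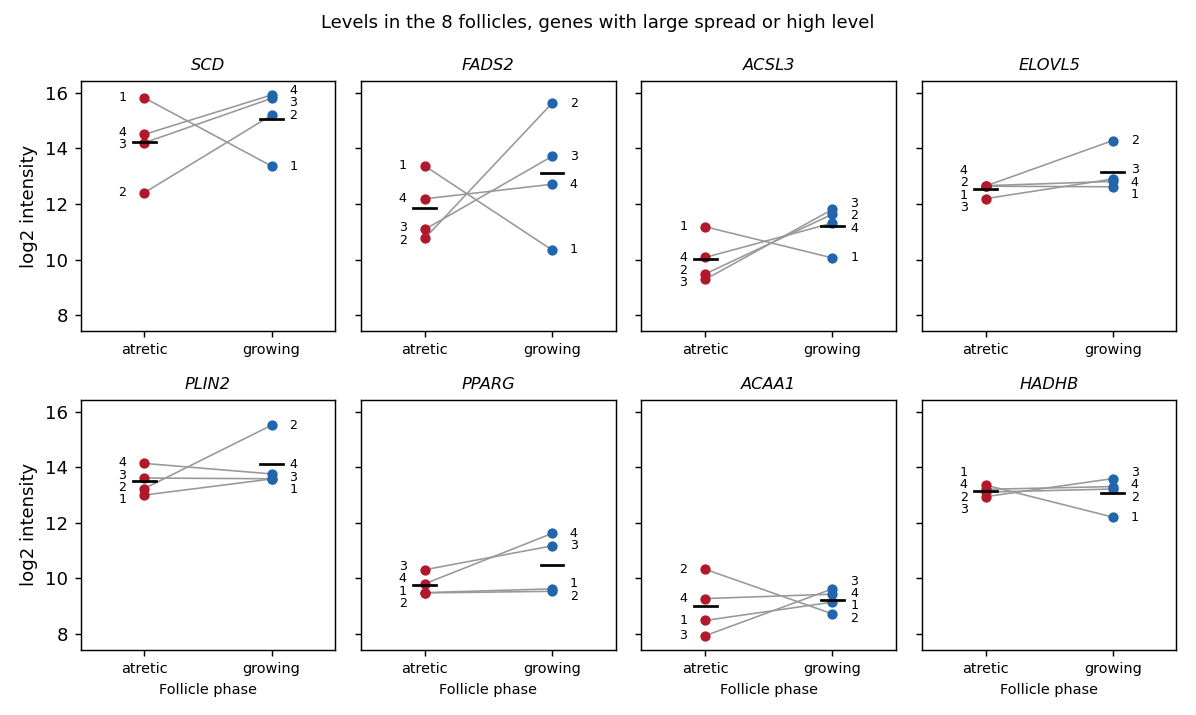
Log2 intensity (vertical axis) of 8 genes in 4 atretic follicles (left, red) and 4 growing follicles (right, blue), with pair numbers, grey lines joining a pair and black bars for group means. For SCD, FADS2 and ACSL3 the line of pair 1 runs against those of pairs 2 to 4, and for PLIN2 the growing follicle of pair 2 stands above all others at 15.51.

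Beta-oxidation had no common direction. Of 10 members in the fit, 6 were above 0 and 4 below, with a median of 0.05, and 7, 3, 6 and 6 were higher in the atretic follicle of pairs 1 to 4. ACAA2, the mitochondrial thiolase that releases acetyl-CoA at the end of each cycle, was the member past the study's threshold. It was at 11.70, 11.44, 11.63 and 11.80 in atretic follicles, against 11.43, 10.60, 10.48 and 10.72 in growing follicles. Every atretic follicle lay above every growing one, a pattern found in 2.04% of genes, and the atretic follicle of pair 2 and the growing follicle of pair 1 were nearest to each other. The ratio was 0.84 ± 0.18 (SE, n = 4 pairs), 1.79-fold higher in atresia (adjusted p = 0.716 in limma). The other two probes for ACAA2 had ratios of -0.23 and -0.16, and on them the dye-swapped arrays had opposite signs in 4 of 4 pairs, which happened in 1 of 4 for the brightest probe. With all 3 probes averaged, the ratio was 0.15 and did not pass.

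HADHB, a subunit of the mitochondrial trifunctional protein, was at 13.36, 13.10, 12.94 and 13.20 in atretic follicles and at 12.20, 13.21, 13.59 and 13.30 in growing follicles. All values but that of the growing follicle of pair 1 lay within a narrow band, and the ratio was 0.07 ± 0.31 (SE). ACAA1, the peroxisomal thiolase, was at 8.49, 10.33, 7.94 and 9.27 in atretic follicles and at 9.14, 8.72, 9.62 and 9.43 in growing follicles. The atretic follicles held both its highest and its lowest value, with a ratio of 1.604 in pair 2 and -0.66, -1.69 and -0.16 in the others.

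The acyl-CoA dehydrogenases, which open each cycle for chains of different lengths, were also divided. ACADS, for short chains, had a ratio of 0.44 ± 0.29 (SE) with 1.32 and 0.72 in pairs 1 and 2 and -0.22 and -0.06 in pairs 3 and 4. ACADM, for medium chains, had -0.40, -0.12, 0.99 and 0.46, and its second measured probe gave -0.26, 0.10, 0.98 and 0.27. ACADVL, for very long chains, had 1.07, -0.64, -1.01 and -0.70 and passed the study's threshold without pair 1, at -0.78. The long-chain form ACADL was at -0.13 ± 0.37. Carnitine palmitoyltransferases, which carry acyl groups into mitochondria, had mean ratios of 0.15 for CPT1A, 0.02 for CPT1B and -0.03 for CPT2, and CPT1A and CPT1B were not above the negative controls on all arrays.

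CD36, a fatty acid translocase and scavenger receptor, stands at the entry of fatty acids into the cell. It was at 10.85, 11.79, 11.61 and 10.92 in atretic follicles, against 10.82, 11.00, 10.98 and 10.61 in growing follicles. The atretic follicle was higher in each pair, barely so in pair 1, and the groups overlapped. The ratio was 0.44 ± 0.16 (SE), below the fold of 1.5 (adjusted p = 0.775 in limma). On this probe the 2 arrays of a pair had opposite signs in 2 of 4 pairs.

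The other two CD36 probes were dimmer but had the same sign on both arrays in every pair. They gave -0.56, 1.43, 4.95 and 3.18 over pairs 1 to 4 (mean 2.25 ± 0.92, SE) and -0.90, 0.67, 2.18 and 1.09 (mean 0.76 ± 0.51), each lower in the atretic follicle of pair 1 and higher in that of the other pairs, and neither passed the study's threshold. On the probe with the larger ratios, the growing follicle of pair 3 was at 7.38 and the atretic one at 12.33. FABP3 and FABP5, cytosolic carriers of fatty acids, had ratios of -0.38 ± 0.27 and -0.02 ± 0.16 and exceeded the negative controls on 6 or 7 of 8 arrays a phase.

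CD36 is also made by macrophages and endothelium, whose markers were examined beside it. Of 7 leukocyte markers in the fit, 3, 3, 7 and 4 were higher in the atretic follicle of pairs 1 to 4, with list means from 7.20 to 8.06 in atretic and from 7.25 to 7.79 in growing follicles. CD68, a macrophage protein, had ratios of 1.57 and 1.503 in pairs 2 and 3 and of -0.21 and 0.18 in pairs 1 and 4, and TYROBP, a signalling adaptor of myeloid cells, reached 1.70 in pair 3. The leukocyte antigen PTPRC had a mean of -0.35, and the defining markers CD14 and CSF1R were at or below the negative controls on most arrays. Of 6 endothelial markers in the fit, 2, 4, 4 and 4 were higher, with list means from 7.26 to 7.97 in atretic and from 7.25 to 8.09 in growing follicles, and KDR, a VEGF receptor, had -3.61, -1.48, 2.24 and 0.86. Smooth muscle markers were higher for 4, 6, 2 and 4 of 7 genes, with list means from 8.36 to 9.22 in atretic and from 8.09 to 8.78 in growing follicles, and MYH11, a smooth muscle myosin, had -3.76, 4.68, 4.28 and 2.02. None of these markers passed the study's threshold over 4 pairs, and their part in the CD36 ratios was not tested.

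**Figure D4:**
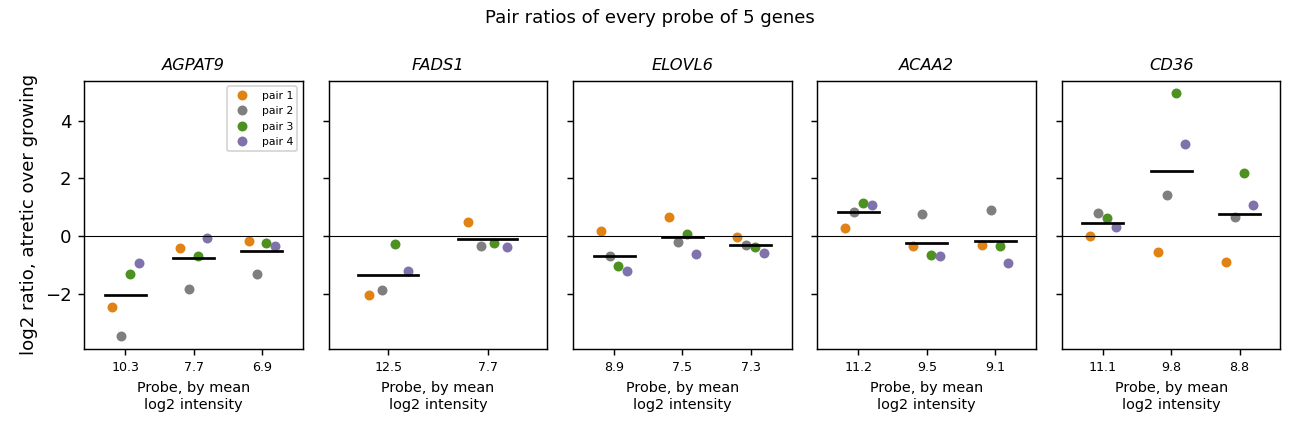
Log2 ratio of atretic over growing (vertical axis) for each probe of 5 genes, placed from the brightest to the dimmest by mean log2 intensity (horizontal axis), with 1 coloured point for each follicle pair and a black bar for the mean. The 3 AGPAT9 probes lie below 0 in all pairs, though the dimmest averaged 6.89, under the limit of 7 for the fit. The ACAA2 probes differ in sign, and the brightest CD36 probe (mean 0.44) shows a smaller difference than the next (mean 2.25).

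Among the genes of glycerolipid synthesis and droplets, the 2 enzymes of the first step differed in direction. AGPAT9, a glycerol-3-phosphate acyltransferase of the endoplasmic reticulum, was at 8.39, 9.67, 9.79 and 9.41 in atretic follicles, against 10.84, 13.14, 11.12 and 10.32 in growing follicles. All 4 atretic follicles lay below all 4 growing ones, a pattern found in 1.59% of genes, and pair 2 differed most. The ratio was -2.04 ± 0.46 (SE), or 4.11-fold lower in atresia, the largest absolute mean among the members over 4 pairs (adjusted p = 0.716 in limma), and each of its 3 probes was lower in all 4 pairs. The dimmer ones had means of -0.75 and -0.52. They exceeded the negative controls on 4 and 0 of 8 arrays for atretic and on 7 and 2 for growing follicles. The former was at -0.08 in pair 4, with opposite signs on the dye-swapped arrays, and the latter was too dim for the fit. On the brightest probe the ratio lay between -2.41 and -1.56 when each pair was left out, and passed the study's threshold each time. Without pair 1 it was -1.90, and the ratios of FADS2, ACSL3 and SCD were then larger in size.

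GPAM, the mitochondrial enzyme of the same step, had pair ratios of 0.26, 0.33, 0.38 and 0.32, with an SD of 0.05 after the dye swaps were averaged. The 2 arrays of a pair gave 0.53 and -0.01, 0.63 and 0.03, 0.52 and 0.25, and 0.28 and 0.37. On average GPAM was higher in atresia in every pair by less than 1.5-fold (0.32 ± 0.10, moderated SE, adjusted p = 0.745 in limma). Its second measured probe was at -0.02. AGPAT1, of the following step, had 0.02 ± 0.13. The last step is shared by DGAT1 (-0.08 ± 0.17) and DGAT2, which had pair ratios of 0.62, -1.53, -0.85 and -0.46 and passed the study's threshold without pair 1, at -0.95.

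PLIN2, the coat protein of lipid droplets, was at 12.995, 13.23, 13.61 and 14.13 in atretic follicles and at 13.58, 15.51, 13.58 and 13.76 in growing follicles. The growing follicle of pair 2 stood alone at the top, and the other 7 follicles overlapped. The ratio was -0.61 ± 0.47 (SE) over all pairs. PNPLA2, the lipase that opens triglyceride breakdown, had pair ratios of -0.17, 1.43, -0.36 and 0.46. LIPE, the hormone-sensitive lipase, was at 6.42 to 6.61 in atretic and 6.34 to 6.60 in growing follicles, with 0 of 8 arrays over the negative controls in each phase.

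Of the nuclear regulators, PPARG, the receptor that drives lipid storage in adipocytes, was at 9.49, 9.48, 10.31 and 9.80 in atretic follicles, against 9.62, 9.53, 11.17 and 11.61 in growing follicles. The growing follicles of pairs 3 and 4 were the high ones, and pairs 1 and 2 hardly differed. The ratio was -0.72 ± 0.33 (SE, adjusted p = 0.809 in limma), lower in all 4 pairs. PPARGC1A, a coactivator of mitochondrial genes, had -0.03 ± 0.11, and PPARA, a receptor that drives oxidation in liver, exceeded the negative controls on 0 of 8 arrays for each phase.

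Counted over roles, 4 members (10.5%) were lower in the atretic follicle of all 4 pairs, namely FADS1, AGPAT9, PPARG and ACSL1, against 6.8% of genes. The dye-swapped arrays of these had opposite signs in 0, 0, 2 and 4 of the 4 pairs. Higher in all 4 pairs were 3 members (7.89%), ACAA2, CD36 and GPAM, against 8.32% of genes. Without overlap between phases there was 1 member in each direction. By these counts the members stood near the background of all genes.

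**Figure D5:**
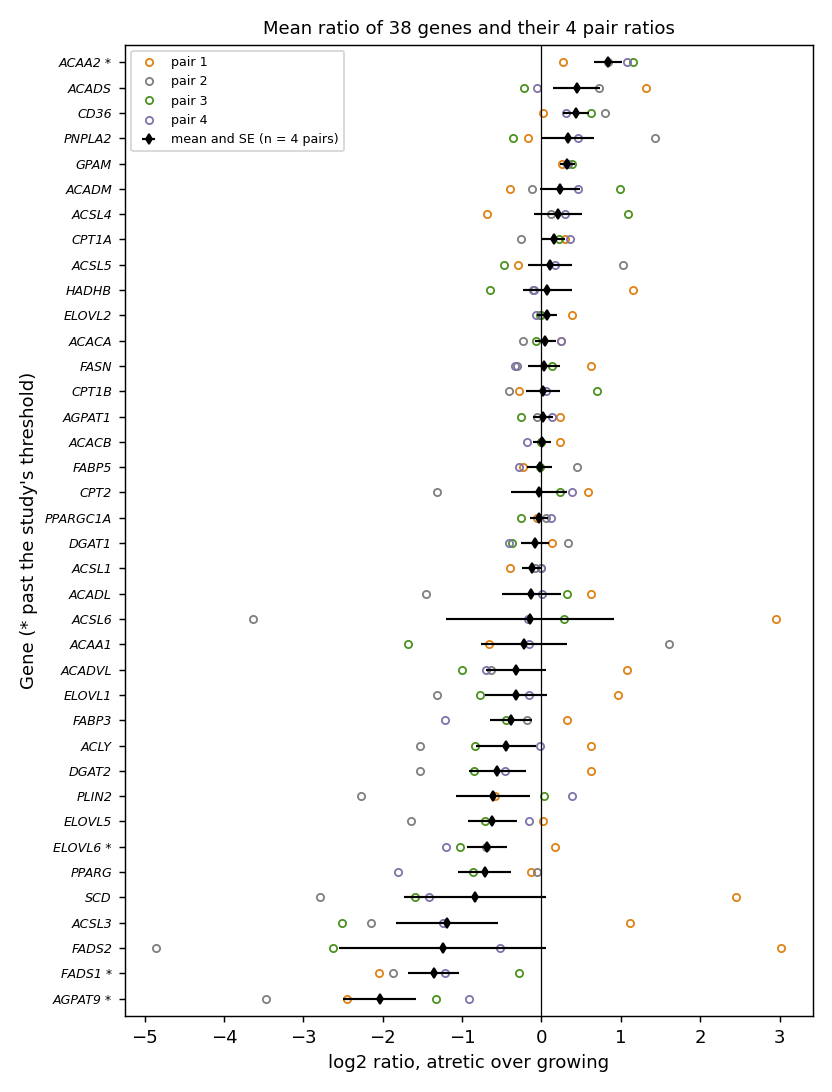
Mean log2 ratio of atretic over growing (black, with the moderated SE of limma, n = 4 pairs) for the 38 genes in the fit. Open circles give the 4 pair ratios. Genes are in order of the mean (horizontal axis in log2 units, asterisk for the study's threshold). AGPAT9 is lowest at -2.04 and ACAA2 highest at 0.84, and for FADS2 and SCD the circle of pair 1 lies far to the right of the mean.

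A wider list of 110 genes on the array that act beside the members was counted in the same way. Of 103 in the fit, 60 were above 0 and 43 below, with a median of 0.04. At the study's threshold 3 were higher and 3 lower, beside 2.66% and 2.44% of all genes. Higher in atresia in all 4 pairs were ACAT1, the acetoacetyl-CoA thiolase of mitochondria, at 0.99, 0.95, 0.92 and 1.01, ACSS1, which makes acetyl-CoA from acetate in mitochondria, with a mean of 1.26 ± 0.16 (SE), and SOAT1, which forms cholesteryl esters, with 0.64 ± 0.13. Lower were SCAP, the escort of SREBP proteins (-0.62 ± 0.15), PTPLAD1, a dehydratase of the elongation cycle (-1.02 ± 0.37), and SLC27A3, an acyl-CoA synthetase of the fatty acid transport family (-1.99 ± 0.63), the last at 0.09 in pair 1 and -1.62, -3.49 and -2.94 in the others. The adjusted p of these 6 genes lay between 0.716 and 0.773 in limma, and with all probes averaged ACAT1 was at 0.39 and did not pass. When pair 1 was left out, SCAP at -0.58 and PTPLAD1 at -1.08 no longer passed, whereas ACAT1, ACSS1, SOAT1 and SLC27A3 still did. Of the 103 genes, 6 were then higher and 7 lower at the study's threshold, beside 7.32% and 5.85% of all genes.

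PDK4, the kinase that holds back pyruvate oxidation when fatty acids are burned, had the largest mean of the oxidation list, at 2.19 ± 1.69 (SE). It was at 9.43, 14.20, 13.36 and 12.33 in atretic follicles, against 13.70, 9.55, 8.63 and 8.67 in growing follicles. Pair 1 ran opposite to the rest, and without it the ratio was 4.35 ± 0.26 (adjusted p = 0.144 in limma). CROT, the peroxisomal carnitine octanoyltransferase, was likewise lower in the atretic follicle of pair 1 alone, with pair ratios of -1.73, 3.03, 2.68 and 2.22, and passed the study's threshold without that pair, at 2.65.

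The lowest of that list were ACOT7, an acyl-CoA thioesterase (-0.60), and ETFB, which takes electrons from the dehydrogenases (-0.40). In the lipogenic list PRKAA1, a catalytic subunit of AMP-activated kinase, had 0.57 and NR1H3, the receptor LXR-alpha, -0.73, from pair ratios of 0.68, -2.68, -0.88 and -0.03. In the elongation list the desaturase SCD5 had 0.84 and ELOVL7 0.18, while PTPLB had -0.44. In the storage list LPIN3, a phosphatidate phosphatase, had 0.38 and FITM2, a protein of droplet formation, -0.66. None of these 9 genes passed the study's threshold over the 4 pairs. Without pair 1, ACOT7 (-1.01), FITM2 (-1.10) and PRKAA1 (1.02) did.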

How the data were processed

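The authors deposited scanner intensities (median pixel of spot and local background, Cy5 and Cy3) and log2 ratios processed by subtraction, loess and quantile normalisation. Here, the deposited intensities of 8 arrays were corrected with normexp (offset 50) and normalised by loess within and quantiles between arrays. Ratios were oriented atretic over growing by the dye labels, and dye swaps, which share RNA extracts, were averaged (n = 4 pairs). Every pair holds both orientations. Pairs were numbered from the labels, and 8 of 8 arrays correlated best with their own number (r of 0.624 to 0.776). The sources used here do not say whether follicles came from different animals, so a p-value rests only on how these follicles vary. Probes whose log2 intensity averaged 7 or more were tested with limma 3.58.1 in R 4.3.3 and adjusted by Benjamini-Hochberg over 36295 probes. Steps were tested on simulated data. Negative controls gave a limit at the 95th percentile of 153 spots.

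Levels of all 8 follicles were printed for members past the study's threshold, the 8 largest mean ratios, the 6 largest spreads, the 4 brightest and 2 dimmest, and CD36. Of related genes, those past the threshold and the 2 highest and 2 lowest of each list were named. The members and lists were chosen with earlier results of these data known. Array annotation named 21790 of 43794 probes by 1 symbol. RefSeq names (ARS-UCD2.0) matched 41 members by symbol and 1 by synonym. No coordinates are printed, as no source used here names the build of the array annotation.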

Additional observations from a re-analysis of the deposited data

Results flagged for a closer look

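For each of 40 members, the 4 atretic levels, the 4 growing levels and the 4 pair ratios were examined, 120 sets in all, for 1 value far from the other 3 by Dixon's criterion. The criterion was met in 8 sets, and chance alone meets it in about 1 in 20.

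In 4 of these the growing follicle of pair 2 was the high one, with log2 intensities of 15.51 for PLIN2, 14.28 for ELOVL5, 11.66 for CPT2 and 10.23 for ACSL6. The atretic follicle of pair 1 was high for ACADS (9.65) and ACSL6 (9.56). The atretic follicle of pair 3 was low for ELOVL5 (12.19), and the ratio of ELOVL2 in pair 1 (0.38) stood above those of the other pairs.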

How the results depend on the processing

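Leaving out each pair in turn, 3 to 10 members passed the study's threshold, 2 to 9 of them lower in atresia, with 782 to 3401 probes (1275 over 4 pairs); the highest counts were without pair 1 and the lowest count of probes without pair 4. The replicate block over the 4 pairs, with 8 arrays, gave 7 members (6 lower), 2243 probes, and 21 probes past the threshold on adjusted p. Adding a dye term left 7 members (6 lower), 2160 and 17 probes. Slide as a random block gave 7 (6 lower), 2213 and 554 probes, and 3 members, AGPAT9, FADS1 and ACAA2, passed the adjusted threshold (0.0314 to 0.0380 in limma). These 3 fits count both arrays of the same extracts. The replicate block allowed for a correlation of 0.46 between the arrays of a pair. The slide block allowed only for 0.01 between arrays of a slide, and so took the dye swaps of a pair as independent. Its 554 probes and 3 members past the adjusted threshold rest on that. Without pairing, 4 members passed. Arrays of slide 203 alone gave 2570 probes. That slide held every array with the atretic follicle in Cy5, and slides 204 and 248 held the reverse, with pair 4 on slide 248. Slide and dye thus cannot be told apart, and a dye effect does not cancel in a fit to 1 slide. With all probes of a gene averaged, 2 members passed. No called member reversed. AGPAT9 and FADS1 passed in all 20 settings fitted over probes, ACAA2 in 19 (not on slide 204) and ELOVL6 in 12. Under 6 other corrections and scalings, 8 members near 0 changed sign in at least 1, and under median centring 72.8% of probes past the study's threshold were higher, against 51.5%.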
